A study of Homo sapiens with 8 samples.

Results

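The 10812 regions described here are the shared CTCF peaks in introns of protein-coding genes in U-2 OS cells, an established human osteosarcoma line. They were chosen by 4 conditions: an interval of CTCF replicate 1 on an autosome or chromosome X, at least 1 bp of overlap with a replicate 2 interval, a summit more than 1 kb from every GENCODE transcript start, and a summit inside a protein-coding gene but in no annotated exon. They made up 31.9% (95% Wilson interval 31.4 to 32.4) of the 33936 shared CTCF peaks. All intervals quoted below are of this kind and cover counting error only.

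CTCF chromatin immunoprecipitation with sequencing (ChIP-seq) was done in 2 replicates with an anti-CTCF antibody in clone C32, a single clone in which endogenous CTCF carries a FLAG and a Halo tag. Every sample was crosslinked with 1% formaldehyde for 6 min. The same series holds an immunoglobulin (IgG) control and immunoprecipitations with 2 antibodies to the transcription factor Sp1, 1 library each. Their genotype label gives a V5-Halo-SP1 knock-in, and their titles call the cells parental. The study uses parental for this knock-in line, from which its inducible lines were derived. The series description calls the cells of the CTCF experiment wild type, whereas the sample labels and the study's methods name the tagged clone, and the labels were followed.

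CTCF is a zinc finger protein that binds a long, asymmetric DNA motif. The cohesin complex, which extrudes loops of chromatin, is often halted at CTCF, and the strand on which the motif lies sets the side from which cohesin is halted. CTCF within genes has been linked in other cells to loop anchoring, enhancer insulation and the inclusion of nearby exons.

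The motif as it occurs in the introns is shown first for the 6 strongest peaks, taken by the mean log2 fold enrichment of both replicates with 1 peak per host gene. Each line gives 60 bases of hg38, 5′ to 3′ on the strand of the motif, with capitals marking the 20-base match to a CTCF weight matrix that had been built from shared CTCF peaks outside the set.
RPTOR, chr17:80575501-80575560, minus strand: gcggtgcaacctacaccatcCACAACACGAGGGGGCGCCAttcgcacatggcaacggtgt
CPNE5, chr6:36759320-36759379, minus strand: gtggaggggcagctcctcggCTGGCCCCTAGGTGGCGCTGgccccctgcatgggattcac
MRPS22, chr3:139329487-139329546, minus strand: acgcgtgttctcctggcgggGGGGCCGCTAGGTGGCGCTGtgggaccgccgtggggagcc
CNGA3, chr2:98385229-98385288, minus strand: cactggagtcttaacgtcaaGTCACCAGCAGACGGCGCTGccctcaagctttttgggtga
CCDC63, chr12:110888165-110888224, minus strand: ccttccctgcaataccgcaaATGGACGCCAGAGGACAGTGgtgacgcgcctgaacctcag
AFF3, chr2:99559233-99559292, plus strand: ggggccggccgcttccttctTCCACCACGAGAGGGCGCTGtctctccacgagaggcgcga

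Fold enrichment is the height of a peak over its background as the authors' peak caller gave it, and it chose these 6 peaks, so the values are a description. The peak of RPTOR, which encodes a subunit of the growth-regulating kinase complex mTORC1, reached 299 in replicate 1 and 194 in replicate 2 and lay in intron 1 of 33. The peak of CPNE5, a copine gene, reached 312 and 175 in intron 12 of 20. The peak of MRPS22, a protein of the small mitochondrial ribosomal subunit, reached 252 and 202 and lay in no intron of the canonical transcript. All 3 were high in both replicates, and each had its motif on the minus strand of the genome. The peak of CNGA3, a subunit of the cyclic nucleotide-gated channel of cone photoreceptors, reached 349 and 118 in intron 5 of 7. The CCDC63 peak reached 303 and 134, and its site had the lowest matrix score of the 6, 12.04 against a threshold of 11.43. The peak of AFF3, a nuclear regulator of transcription, reached 279 and 146 in intron 21 of 24. None of the 6 matched every position of the 12-letter CTCF core consensus, although all passed the matrix threshold.

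At the other end, the 3 weakest members held no matrix site. The TMEM242 peak had fold enrichments of 1.39 in replicate 1 and 1.66 in replicate 2. The DUX4 peak had 1.51 and 1.64, and DUX4 belongs to a multi-copy family, so its reads cannot be placed with certainty. The PCMTD2 peak had 1.62 and 2.35. The sequence at its summit is a run of the repeat TTAGGG, so its reads cannot be placed with certainty either.

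Across all members, fold enrichment ran from 1.39 to 349 in replicate 1, with a median of 39.1 and quartiles of 17.3 and 75.9. In replicate 2 it ran from 1.64 to 202, with a median of 20.7 and quartiles of 9.34 and 39.1. Replicate 2 was the lower of the pair at 10546 members (97.5%), and the median log2 ratio of replicate 2 to replicate 1 was -0.89. The order of the peaks was nonetheless alike, with a Spearman rho of 0.951 over the 10812 peaks and a Pearson r of 0.945 on log2 values. The median gap between the summits of the replicates was 9 bp, and 99.8% of the gaps were at most 100 bp. Fold enrichments more than 4-fold apart occurred at 99 members (0.916%), against 1.25% of all shared CTCF peaks.

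**Figure D1:**
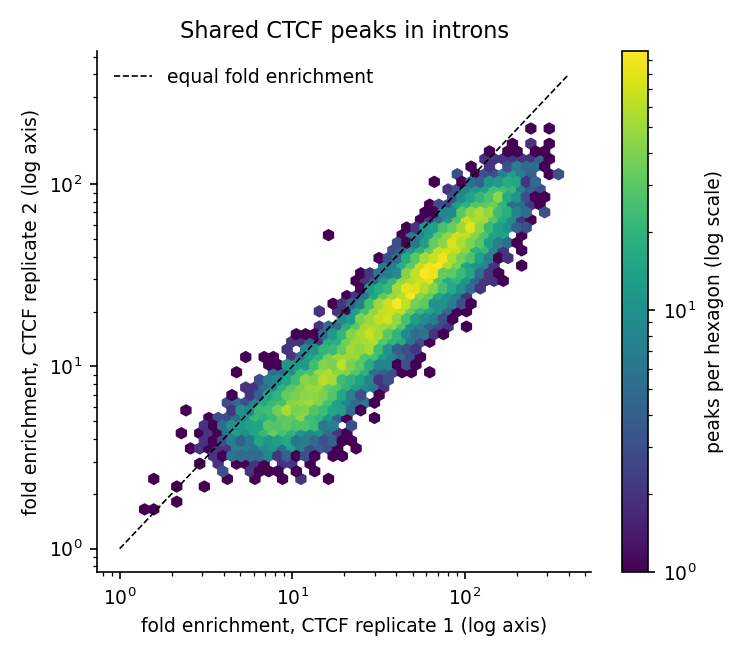
Fold enrichment of the 10812 shared intronic CTCF peaks in replicate 1 (x axis) and replicate 2 (y axis), both on log axes, with colour for the number of peaks per hexagon and a dashed line of equal values. The cloud runs along the diagonal and below it, since 97.5% of the peaks were lower in replicate 2.

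Among the replicate 1 peaks with intronic summits, 10812 of 13350 (81.0%) overlapped a replicate 2 peak, against 79.9% of replicate 1 peaks of all classes. The unshared intronic peaks had a median fold enrichment of 5.82 in replicate 1. Of the intronic peaks of replicate 2, 10895 of 11145 (97.8%) overlapped replicate 1. The smallest overlaps among members were 94 bp in ASAH2B (fold enrichments 4.50 and 3.05) and 100 bp in DNAH11 (6.08 and 3.28). The nearest peaks left out were one in BASP1 that abutted a replicate 2 interval (3.12 in replicate 1) and one in TBCD 224 bp from the nearest (6.23). At the limit on transcript starts, the members closest to it were at 1001 bp in ZCCHC14 (21.7 and 8.45) and 1002 bp in GALNT7 (35.9 and 17.8), and the closest peaks beyond it were at 1000 bp in ANGPT1 (56.8 and 30.3) and 998 bp in SAMD11 (13.9 and 5.40).

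Intronic peaks were spread over the genome at much the density of intergenic ones. The sequence in which a summit could qualify, called intron territory here, covered 1088 Mb or 37.4% of the sequence, which gives 9.94 members per Mb. Intergenic shared peaks numbered 9.87 per Mb, and all shared peaks 11.7 per Mb. Median fold enrichments of intergenic shared peaks were 46.1 in replicate 1 and 24.2 in replicate 2, above the 39.1 and 20.7 of the members. At promoters, within 1 kb of a transcript start, they were 41.0 and 20.1, and in exons 41.2 and 20.8. In introns of noncoding genes they were 40.2 and 21.5. Peaks of at least 100-fold in both replicates numbered 147 members (1.36%), 67 peaks in introns of noncoding genes (2.02%) and 285 intergenic peaks (2.60%). Fold enrichment entered the choice of shared peaks in every class, so these differences were not tested.

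The CTCF motif was searched within 50 bp of each replicate 1 summit, a measure that the selection did not use. The exact core consensus, read on both strands, was found at 2161 members (20.0%, 19.2 to 20.8), against 18.7% of all shared CTCF peaks and 0.0316% of 101-bp windows laid end to end over intron territory. With 1 mismatch allowed it was found at 60.8% of members and 0.468% of windows. A site of the 20-column matrix was found at 9285 members (85.9%, 85.2 to 86.5), against 84.6% of all shared peaks, with a threshold that 1% of the windows passed. Intergenic shared peaks had a site in 85.9% (85.3 to 86.6), exonic ones in 87.7% (86.1 to 89.2) and promoter peaks in 79.4% (78.4 to 80.3). Peaks in introns of noncoding genes had a site in 85.4% (84.2 to 86.6). At a threshold passed by 0.1% of windows, 5684 members (52.6%) had a site. A match describes the letters under a peak and does not show which bases were bound.

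Peaks with the better motif had the higher median fold enrichments. Members with the exact core had median fold enrichments of 60.8 in replicate 1 and 31.8 in replicate 2. Those with a matrix site but no exact core had 39.4 and 20.9, and the 1525 members with neither had 17.1 and 9.52. When the members were divided into 10 groups by fold enrichment, the share with a matrix site was 66.0% in the weakest and 97.0% in the strongest, and the share with the exact core 7.30% and 34.6%. Over the 9285 members with a site, matrix score and fold enrichment had a Spearman rho of 0.378 in replicate 1 and 0.374 in replicate 2, a description across peaks that share the same libraries. Of the 109 members in the top 1% by fold enrichment, 108 had a matrix site and 29 the exact core.

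**Figure D2:**
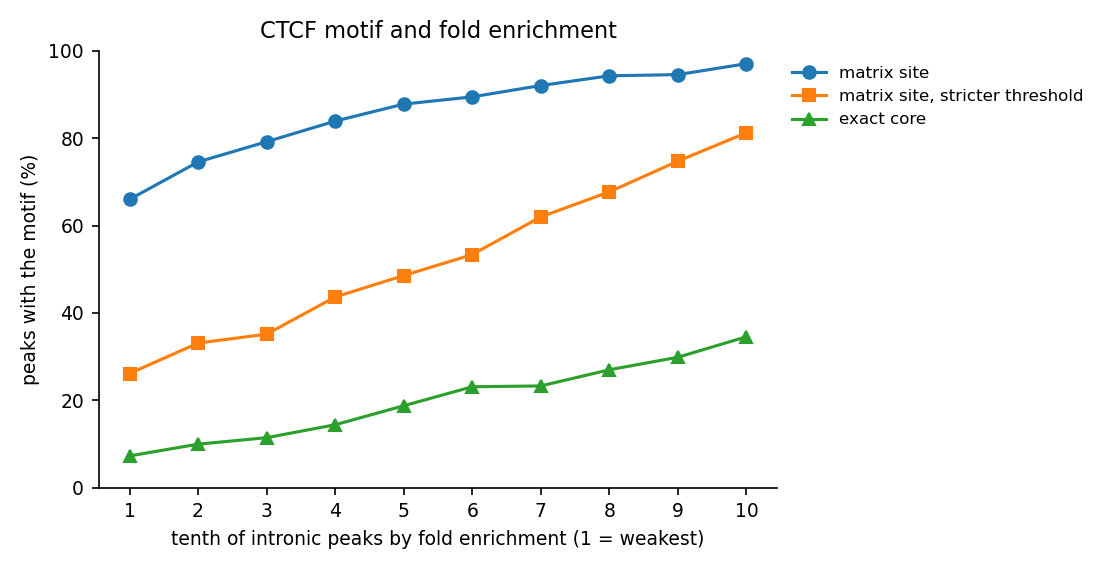
Share of intronic CTCF peaks with a CTCF motif within 50 bp of the summit (y axis, %) in 10 groups of equal size ordered by mean log2 fold enrichment (x axis, 1 the weakest). All 3 lines are higher in the strongest group than in the weakest, from 66.0% to 97.0% for the matrix site, 26.2% to 81.2% for the stricter threshold and 7.30% to 34.6% for the exact core.

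The centre of the site lay a median of 12 bp from the summit, and 87.9% of the sites were within 20 bp. Sites at the stricter threshold were also counted over the whole replicate 1 interval, so wider peaks had more sequence searched. More than 1 such site was found in few peaks, and these had higher median fold enrichments than the rest. The 5559 members with 1 such site had median fold enrichments of 55.0 in replicate 1 and 28.8 in replicate 2. The 176 members with 2 such sites had 97.1 and 52.3, and the 15 with 3 or more had 89.6 and 42.6. Not all of these were strong, since a MEGF6 peak with 18 such sites had fold enrichments of 10.4 and 4.52. Whether its sites are copies of a repeat, which would make its values uncertain, was not examined. The 5062 members without one had 25.2 and 13.3.

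Sequence preference reached beyond the 20 columns that had placed the sites. Positions are counted from 1 at the first base of the core, along the strand of the motif. Upstream of the matrix, position -11 was T in 46.4% of the 9285 sites and position -16 was G in 35.4%. Downstream, position 19 was G in 41.4% and position 22 was C in 39.7%. In the weakest group of members these 4 bases were present in 34.7%, 29.7%, 35.3% and 33.6% of sites, in that order. In the strongest group they were present in 48.8%, 41.0%, 51.9% and 53.7%. The strongest group therefore had the larger share at each of the 4 positions, which were picked after their values were seen.

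**Figure D3:**
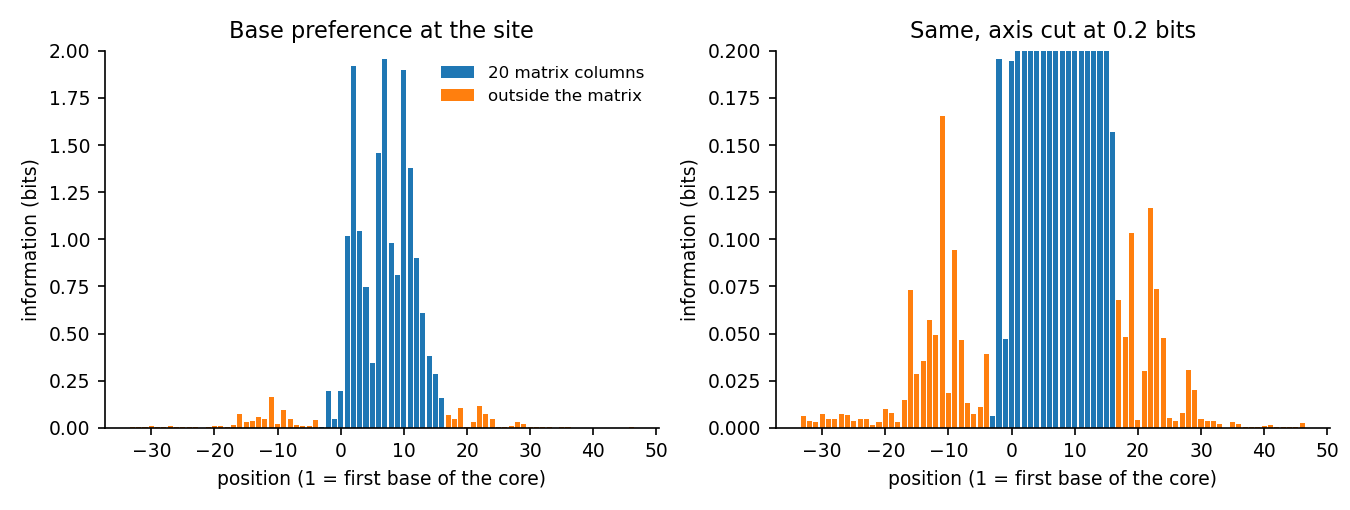
Information content in bits (y axis) at each position around the CTCF site of 9285 intronic peaks (x axis, 1 being the first base of the core along the motif strand), with the 20 matrix columns in blue and positions outside them in orange. The right panel is cut at 0.2 bits and shows small maxima outside the matrix, 0.165 bits at position -11 and 0.117 bits at position 22.

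A CpG inside the motif is a place where DNA methylation can meet CTCF binding, and methylation was not measured. Core positions 12 and 13 were CpG at 2074 of 9285 intronic sites (22.3%, 21.5 to 23.2). The share was 27.4% (26.5 to 28.3) at intergenic sites, 35.3% (32.9 to 37.6) at exonic sites and 48.9% (47.5 to 50.2) at promoter sites. At sites in introns of noncoding genes it was 22.6% (21.1 to 24.2), much as in the members. Intronic peaks with this CpG had median fold enrichments of 68.0 in replicate 1 and 35.3 in replicate 2, and those without it 39.6 and 20.9. Their median matrix scores were 18.97 and 17.45, so the motif score moved with the CpG, and its part in the difference was not tested. At positions 2 and 3 a CpG was found in 5.25% of intronic sites (4.81 to 5.72), with medians of 70.5 and 35.8 against 43.1 and 22.6 without it. Here the median matrix score was lower with the CpG, 16.9 against 17.8. In the weakest and strongest groups of members the CpG at positions 12 and 13 was present in 17.2% and 46.6% of sites.

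Intronic sites lay on either strand of their host genes in nearly equal numbers. Of 9109 sites in genes of a single strand, 4521 (49.6%, 48.6 to 50.7) were on the strand of the gene. The strand was read in 8 sets in all, and in 5 of the sets the interval held 50%. The other 3 fell below it: introns after the first at 47.9% (46.7 to 49.2), the exact core at 47.6% (45.5 to 49.7) and the strongest of the 10 groups at 45.2% (42.2 to 48.3). These sets overlap each other and were compared with no test. Sites on the gene's strand had median fold enrichments of 42.7 in replicate 1 and 22.5 in replicate 2, and sites on the opposite strand 46.0 and 23.7.

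Neighbouring sites within a gene differed in relative strand with their distance. There were 4913 pairs of neighbouring members in the same gene, with a median distance of 31.0 kb, and 3588 of the pairs had a site at both. Sites that point towards each other are called convergent, away from each other divergent, and the same way tandem. At 3 to 10 kb, divergent pairs made up 32.5% (29.0 to 36.2) and convergent pairs 18.0% (15.3 to 21.2). At 10 to 30 kb the shares were 30.5% (27.6 to 33.5) and 15.5% (13.3 to 18.0). Beyond 100 kb the order was the opposite, with 17.1% (14.5 to 20.1) divergent and 31.3% (28.0 to 34.9) convergent. Between 30 and 100 kb the shares were 21.97% and 24.68%, with overlapping intervals. Tandem pairs made up 52.8% overall. Pairs with no other shared CTCF peak between them gave 31.2% divergent at 3 to 30 kb and 31.7% convergent beyond 100 kb. A peak in the middle of a gene belongs to 2 pairs, so the pairs are not independent.

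**Figure D4:**
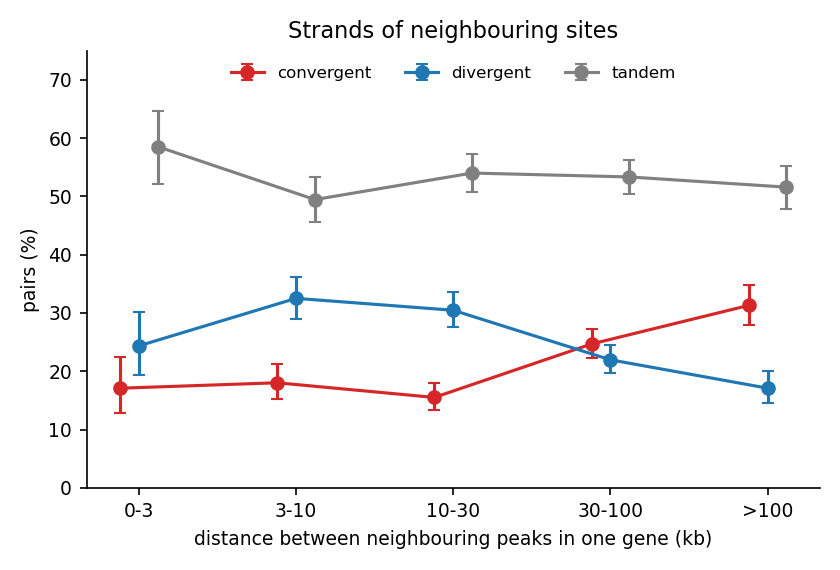
Share of neighbouring intronic CTCF site pairs in one gene (y axis, %) that are convergent, divergent or tandem, by the distance between their summits (x axis, kb), with 95% Wilson intervals as error bars. Divergent pairs exceed convergent ones between 3 and 30 kb, and convergent pairs exceed divergent ones beyond 100 kb (31.3% against 17.1%).

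Intronic CTCF peaks were found in 5991 of 17925 protein-coding genes with intron territory (33.4%). Of these genes, 3527 held 1 member, 2096 held 2 to 4, 326 held 5 to 9 and 42 held 10 or more. Larger genes held more, with a Spearman rho of 0.580 between members and territory across genes. Per Mb, however, genes with at most 10 kb of territory held 18.7 members and those with over 300 kb held 7.37. Of the members, 506 lay in more than 1 gene and count in each. The share of genes with a member was 45.6% at 30 to 100 kb of territory, 77.2% at 100 to 300 kb and 95% (684 of 720) above 300 kb.

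The 8 genes with the most members were long ones. RBFOX1, a regulator of splicing, held 20 members with fold enrichments from 5.94 to 174 in replicate 1 and from 3.79 to 77.0 in replicate 2. KAZN, which encodes the junctional protein kazrin, and PDE4D, a cAMP phosphodiesterase, held 19 each. DLG2, a scaffold of the synapse, held 18. NTM and LSAMP, adhesion proteins of the IgLON family, held 16 and 15. ASIC2, an acid-sensing ion channel, held 13, as did CTNNA2, NRXN3 and a gene without a symbol, and it was placed ahead of them by its smaller territory. GSE1 stood apart from these in density, with 17 members at 37.3 per Mb against 8.40 to 17.6 in the other genes of the 8. Its median fold enrichments were also the highest of the 8, 90.2 in replicate 1 and 50.7 in replicate 2.

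Among genes with at least 6 members, the 5 densest held 6 each. MYO18A, an unconventional myosin, had 85.7 members per Mb of territory. SPTB, erythrocyte beta spectrin, and SYTL3, a synaptotagmin-like protein, had 55.5 each. TBCD, a tubulin folding cofactor, had 48.2. CR1, the complement receptor that carries long internal repeats, had 46.9, with fold enrichments from 46.0 to 76.4 in replicate 1 and 17.9 to 39.8 in replicate 2. A pair of its peaks, in introns 7 and 15, had identical 60-base windows, so reads from these copies cannot be told apart by this stretch and their values are uncertain. The shared window is shown once, and the copy in intron 15 is at chr1:207547129-207547188.
CR1 intron 7, chr1:207528574-207528633, minus strand: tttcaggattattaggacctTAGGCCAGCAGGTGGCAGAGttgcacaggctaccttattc

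The gene lists are described beside 33.4% of all genes with a member and 9.94 members per Mb of territory, and no list was tested. Of 17 genes of the CTCF and cohesin system with intron territory, 7 (41.2%) held 15 members, 8.10 per Mb. Over all genes the share with a member was 23.4% at 10 to 30 kb of territory and 45.6% at 30 to 100 kb. It was 77.2% at 100 to 300 kb and 95% above 300 kb. STAG2, a cohesin subunit, held 4 with fold enrichments from 12.7 to 24.6 in replicate 1 and 6.56 to 19.2 in replicate 2. CTCFL, the germline paralogue of CTCF, held 3 (21.7 to 68.1 and 12.8 to 46.4). PDS5B, a regulator of cohesin, held 3 (32.7 to 50.6 and 12.9 to 23.8), and NIPBL, the cohesin loader, held 2 (27.6 to 30.5 and 15.9 to 22.02). Sites on the strand of the gene numbered 4 of 4 in STAG2, 1 of 3 in CTCFL, 0 of 3 in PDS5B and 0 of 2 in NIPBL. The CTCF gene itself held none in 56.9 kb of territory.

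All 20 long adhesion and synapse genes held members, 188 in all at 5.89 per Mb. Each has over 300 kb of territory, and 95% of all genes of that size held a member, at 7.37 per Mb. The range within the list was wide: DMD, the dystrophin gene, held 2 in 2122 kb and CNTN5, a contactin, held 1 in 1315 kb, both named after their values were seen. Among bone lineage and matrix genes, 10 of 19 (52.6%) held 22 members, at 13.8 per Mb against 9.94 over all territory. Over all genes, density was 14.8 per Mb at 10 to 30 kb of territory and 11.6 at 30 to 100 kb. It was 10.0 at 100 to 300 kb. The shares of genes with a member at these sizes were 23.4%, 45.6% and 77.2%, in that order. COL5A1 held 6 (5.55 to 113 and 4.49 to 44.1) and COL4A2 held 4 (10.1 to 66.8 and 7.32 to 40.5), both collagen chains. ALPL, the bone alkaline phosphatase, held 2 (7.49 to 20.1 and 5.13 to 9.94), and COL4A1 held 2 (13.9 to 128 and 4.79 to 73.5), tied with COL11A1 and RUNX2.

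Receptor tyrosine kinase genes held 40 members in 17 of 26 genes (65.4%), at 8.33 per Mb, beside 33.4% of all genes, 45.6% of those with 30 to 100 kb and 77.2% of those with 100 to 300 kb. ERBB4 held 5, and IGF1R, NTRK3 and ROR2 held 4 each, as did ROR1, NTRK2 and ALK. PDGFRA, named after its value was seen, held 1 member with fold enrichments of 203 and 54.3. Chromatin regulator genes held 43 members in 12 of 26 genes (46.2%), at 10.9 per Mb, beside the same shares. HDAC9, a histone deacetylase, held 10 (8.13 to 71.5 and 4.45 to 41.3). PRDM16, a zinc finger regulator, held 6 (15.8 to 55.9 and 8.83 to 26.2), and EHMT1, a histone methyltransferase, held 4 (2.25 to 42.0 and 1.80 to 28.0).

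The last list held 5 genes in which an internal CTCF site has been described in other cells, and 4 of them (80%) had members here. That is beside 33.4% of all genes, and the list held 7.93 members per Mb against 9.94 over all territory. Over all genes the share with a member was 23.4% at 10 to 30 kb of territory and 45.6% at 30 to 100 kb. It was 77.2% at 100 to 300 kb and 95% above 300 kb. Whether these are the same sites was not examined. BCL6, a transcriptional repressor, had 1 peak in intron 1 of 9 with fold enrichments of 213 and 115. KCNQ1, a potassium channel, had 1 in intron 2 of 15 with 234 and 124. PTPRC, which encodes the leukocyte antigen CD45, had 1 in intron 2 of 32 with 26.4 and 14.1. FTO, an RNA demethylase, had 5, from 5.95 to 63.0 in replicate 1 and 4.15 to 41.5 in replicate 2, and all 5 sites lay on the strand of the gene. The site of KCNQ1 also lay on the strand of its gene, and those of BCL6 and PTPRC lay on the opposite strand. LMBR1 had none. The sites of the 3 genes with a single peak are shown because they differ in strength and in how closely they match the core.
BCL6, chr3:187740081-187740140, plus strand: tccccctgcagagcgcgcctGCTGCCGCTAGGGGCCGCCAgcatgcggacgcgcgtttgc
KCNQ1, chr11:2532929-2532988, plus strand: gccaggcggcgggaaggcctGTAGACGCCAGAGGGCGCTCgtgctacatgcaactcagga
PTPRC, chr1:198686299-198686358, minus strand: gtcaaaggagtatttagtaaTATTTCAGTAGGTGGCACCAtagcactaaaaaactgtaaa

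Within genes, members were sparser in intron 1 of the canonical transcript than in its later introns. Of the 8735 members in an intron of a canonical transcript, 1751 (20.0%, 19.2 to 20.9) lay in intron 1, which held 24.2% of the territory. That is 7.94 per Mb, against 8.29 in intron 2 and 11.1 in introns 4 to 10. Median fold enrichments were 33.1 and 17.4 in intron 1 and 40.7 and 21.7 in introns 4 to 10. In introns after the first, 49.2% (48.1 to 50.4) of 6984 members lay before the midpoint, where 50.0% of the territory lay.

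Members were also closer to exons than the territory as a whole. The median distance to the nearest exon edge was 2497.5 bp for members and 4068 bp for the territory. Within 250 bp of an edge lay 8.86% (8.34 to 9.41) of members and 5.83% of territory, and within 1000 bp 26.4% (25.6 to 27.2) and 18.95%.

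Density followed intron length and base composition. Introns of at most 3 kb held 15.3 members per Mb, and introns over 300 kb held 6.22. In 10-kb windows with under 36% GC there were 6.20 members per Mb, and in those with at least 52% GC there were 24.2. Median fold enrichments were 31.4 and 16.8 in the former windows and 56.4 and 26.7 in the latter. Within windows under 40% GC, introns up to 10 kb held 8.55 members per Mb and those over 100 kb held 5.04. Within windows of at least 48% GC the same classes held 23.1 and 12.4. Intron rank, intron length, GC content and distance to exons move together, and their separate parts were not tested.

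**Figure D5:**
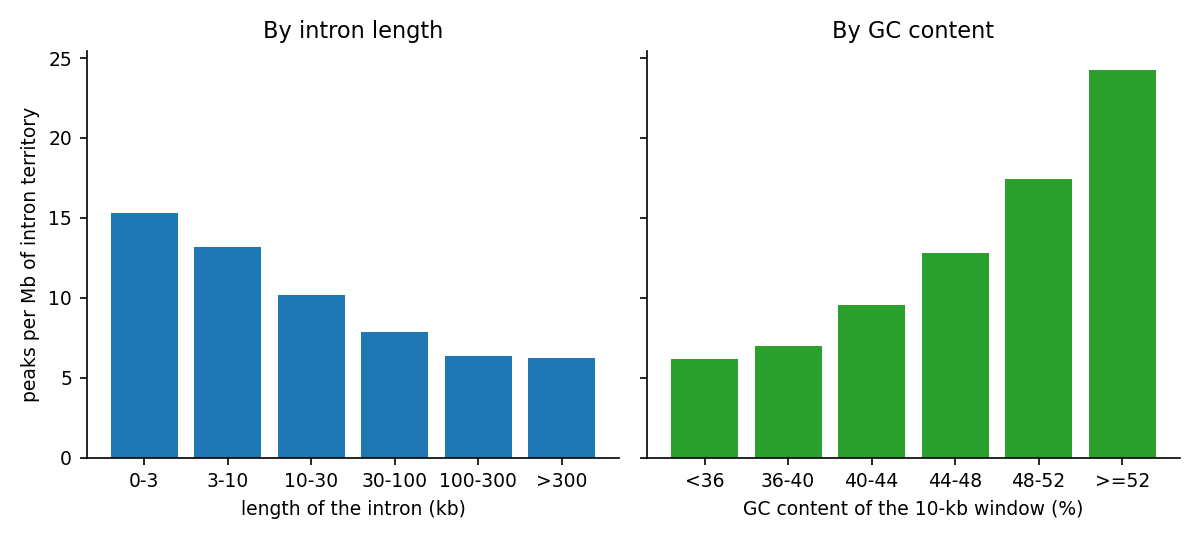
Shared intronic CTCF peaks per Mb of intron territory (y axis, from 0) by length of the intron (left, kb) and by GC content of the 10-kb window (right, %). Density is 15.3 per Mb in the shortest introns and 6.22 in the longest, and 6.20 in the windows poorest in GC and 24.2 in the richest.

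Sp1, a zinc finger activator that binds GC-rich promoters, was rarely found at these regions. A peak shared by both Sp1 antibodies overlapped 29 members (0.268%, 0.187 to 0.385), against 2.88% of all shared CTCF peaks, 11.5% (10.8 to 12.3) of those at promoters and 0.875% (0.717 to 1.07) of intergenic ones. In introns of noncoding genes the share was 0.634% (0.415 to 0.968). All peaks of antibody 1, shared or not, overlapped 74 members (0.684%), against 5.40% of all shared CTCF peaks. Those of antibody 2 overlapped 48 (0.444%), against 3.36%. Peaks of either antibody overlapped 94 members (0.869%), against 6.10%. Of the 29 members, 20 lay within 5 kb of a transcript start (69.0%), against 33.3% of the other members, and 12 had summits within 100 bp of a shared Sp1 summit. Over all shared CTCF peaks, 260 had summits that close, beside 977 overlapped by a shared Sp1 peak. The 10-kb windows of the 29 members had a median GC content of 54.4%, against 42.4% for the other members. No member overlapped any of the 106 IgG peaks, of which 90 lay on the autosomes and chromosome X, for an upper Wilson limit of 0.0355%. Overlap with IgG was rare over all shared CTCF peaks too, at 37 (0.109%), of which 34 were intergenic.

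The 3 overlaps with the highest Sp1 fold enrichment differed in their layout. In GRK1, rhodopsin kinase, the CTCF peak had fold enrichments of 123 and 50.5, the Sp1 peak 345 with antibody 1 and 178 with antibody 2, and the summits lay 402 bp apart. In EFR3B the CTCF values were 149 and 47.4, the Sp1 values 18.5 and 7.22, and the summits lay 48 bp apart. In DLG4, the postsynaptic scaffold PSD-95, the CTCF values were 15.9 and 6.31, the Sp1 values 13.7 and 8.41, and the summits lay 921 bp apart. The CTCF site of GRK1, the overlap with the highest Sp1 values, is shown.
GRK1, chr13:113724960-113725019, plus strand: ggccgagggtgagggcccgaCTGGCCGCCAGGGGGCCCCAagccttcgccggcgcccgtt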

How the data were processed

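Peaks came from the narrowPeak lists that the authors deposited, 1 for each immunoprecipitated library, on hg38. The submitters' processing notes name cutadapt 2.6, Bowtie2 2.4.5, SAMtools 1.15.1, deepTools 3.5.4, MACS2 2.2.7.1 and bedtools 2.27.1. The deposited values are fold enrichment, a ratio over background, and −log10 p and −log10 q values. The lowest −log10 q in the lists was 1.30. The study's methods describe peak calling against merged control replicates, without a local background model and at a liberal p cutoff. Whether the deposited lists come from that call or from another is not given in the sources used here. Read depth is unknown from peak lists, so no interval rests on it, and the replicates may differ in depth.

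Peaks were classed by the replicate 1 summit against GENCODE release 44, whose build matches the lists. Intron territory is protein-coding gene sequence outside exons and over 1 kb from transcript starts. The 20-column matrix (core with 4 bases on each side) was trained on 4192 exact cores and then 17283 sites of shared peaks outside the members. The functions for overlap, strand and motif search were tested on simulated data. Python 3, numpy, pandas and scipy were used.

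Named sites were the 6 strongest members (1 per gene, no IgG overlap), the 3 weakest, the 3 with the highest Sp1 values and those at the limits. Named genes were the 8 with most members, the 5 densest with at least 6 members, and up to 4 per list. A gene and a sequence that the rules would name are not reported here. The members and gene lists were chosen with earlier results of these data known, and the breakdowns by GC content, intron length, gene size, strength, CpG and pairs of neighbours were added after the files were seen. No test was made, since the rule selects on presence in both CTCF replicates, for which nothing says that cultures were separate beyond the label of independent replicates.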

Additional observations from a re-analysis of the deposited data

How the results depend on the processing

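No paired analysis was possible because the replicate numbers of the CTCF libraries are shared only with input libraries, for which no peak list was used. The number of shared intronic peaks was within 1.5 times the reported one under each alternative except a limit of 5 kb from transcript starts (7198), and was 11145 to 13350 without 1 or the other replicate. Spearman's rho was 0.982 on −log10 p. The share with the core was 60.8% with 1 mismatch, and 17.4% to 19.6% without 1 or the other replicate. The share with a matrix site was 52.6% at the stricter threshold and 80.3% to 84.4% without a replicate. Sites on the gene's strand were 47.6% for the exact core, and 49.6% without either replicate. Intron 1 held 42.6% of the 10306 members in 1 gene when the first intron of any transcript counted. It held 17.5% beyond 5 kb from transcript starts, and 20.2% to 21.4% without a replicate. No matching share of territory is given for the any-transcript count or the 5-kb limit. Neither value can therefore be set against the 24.2% of territory in canonical intron 1. Sp1 overlap was 0.684% with antibody 1, 0.444% with antibody 2, 0.111% with summits within 100 bp, and 0.260% to 0.262% without a replicate. The median exon distance was 3307.5 bp with canonical exons, against 5521 bp for the territory, and 2513 to 2573.5 bp without a replicate. Divergent pairs at 3 to 30 kb were 36.2% with fold enrichment of at least 30 in replicate 1 at both peaks. With that limit, pairs beyond 100 kb were 28.6% (23.4 to 34.5) convergent and 19.8% (15.3 to 25.2) divergent. With stricter sites, pairs beyond 100 kb were 26.8% (21.6 to 32.8) convergent and 18.7% (14.3 to 24.2) divergent. Under either alternative the convergent and divergent intervals beyond 100 kb overlapped. Alternatives for pairs and the left-out replicates other than for the count were chosen after seeing the data. Of 44 alternative values, 27 stayed within 1.5 times the count or within the interval of the reported value. The causes of the other shifts were not tested. With 2 replicates and no depth in the lists, the spread between cultures cannot be judged from these values.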

Other observations

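Chromosomes differed in the density of intronic CTCF peaks. Chromosome 19 held 366 members at 16.8 per Mb of intron territory, with median fold enrichments of 53.5 in replicate 1 and 27.6 in replicate 2. Chromosome X held 305 at 6.67 per Mb, with medians of 27.5 and 15.4, and chromosome 13 held 221 at 7.59 per Mb, with medians of 32.4 and 17.7. Copy number, which varies between chromosomes in U-2 OS cells, was not measured.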
